A study of Mus musculus with 25 samples.

Results

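The endoplasmic reticulum chaperones described here are 10 genes, Hspa5, Hsp90b1, Calr, Canx, Pdia3, Pdia4, Pdia6, Dnajb9, Sdf2l1 and Manf, picked by name from the 35969 genes that could be summed from the transcript table. The rule names the genes and uses no measured value, but it was written with earlier results of these data known. All 10 were among the 11984 genes with a mean level high enough to test. Left ventricle was taken from 25 male mice in 5 groups of 5. WT and GPx4+/- littermates on a C57BL6/J background, the second carrying 1 working copy of the gene for glutathione peroxidase 4 in every cell, ate either control chow (WT CNTL and GPx4+/- CNTL, 6% of calories from fat) or a high fat, high sucrose diet (WT HFHS and GPx4+/- HFHS, 35.5% of calories from lard fat and 38% from sucrose) for 16 weeks from an age of 8 to 10 weeks. The fifth group, WT HFHS + Carnosine, also drank 80 mM carnosine, a dipeptide that traps reactive aldehydes, from week 7. GPx4+/- mice given HFHS and carnosine were not analysed here. All mice were fasted and then given dextrose or saline before the heart was taken, and which of them each mouse received is not in the labels, so its part in any difference was not tested.

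The endoplasmic reticulum (ER) is where secreted and membrane proteins are folded, and in heart muscle cells it is continuous with the calcium store that drives each contraction. The chaperones bind unfolded chains (Hspa5, Hsp90b1), retain sugar-bearing proteins until they are folded (Calr, Canx) or make and reshuffle disulfide bonds (the Pdia genes). When unfolded proteins pile up, 3 sensors in the ER membrane, Atf6, Ern1 and Eif2ak3, start the unfolded protein response (UPR), and the chaperone genes are its textbook targets. Much of that induction runs through the ER stress response element (ERSE), a CCAAT box and a CCACG box held apart by 9 bases.

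The ERSE letters, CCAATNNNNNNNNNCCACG read on either strand, were looked for in the RefSeq promoters of these genes, from 250 bases before the transcript start to 50 bases after it in GRCm38.p6. A promoter was given for 9 of the 10 genes (not Manf), and 5 of those 9 held the element. Among all 27025 genes with a promoter, 37 held it, which is 0.137% of them. The 5 genes' elements are printed because so few other promoters hold one. Each is written 5′ to 3′ along the gene's own strand with 5 flanking bases on both sides, and capitals mark the element.
Hspa5, chr2:34772020-34772048, plus strand, 65 to 47 bases before the start: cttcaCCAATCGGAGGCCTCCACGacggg
Hsp90b1, chr10:86705633-86705661, minus strand, 212 to 194 bases before the start: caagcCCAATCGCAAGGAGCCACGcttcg
Hsp90b1, chr10:86705528-86705556, minus strand, 107 to 89 bases before the start: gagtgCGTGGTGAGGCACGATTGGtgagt
Calr, chr8:84847070-84847098, minus strand, 162 to 144 bases before the start: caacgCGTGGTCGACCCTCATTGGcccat
Canx, chr11:50325795-50325823, minus strand, 145 to 127 bases before the start: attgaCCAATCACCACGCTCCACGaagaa
Pdia6, chr12:17266486-17266514, plus strand, 98 to 80 bases before the start: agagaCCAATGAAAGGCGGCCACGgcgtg
Hsp90b1 carried the element on each strand, Calr only in the reverse direction, and the other three only in the forward direction. The promoters of Pdia3, Pdia4, Dnajb9 and Sdf2l1 held no match. No promoter was given for Atf6, so that gene was not searched. The core of the UPR element, TGACGTGG on either strand, was in none of the 9 promoters and in those of 0.714% of all genes. Of the other ER lists used below, the exact ERSE was in 3 of 21 folding factors with a promoter, 2 of 15 degradation genes, 0 of 18 translocon genes and 0 of 11 UPR sensors and transcription factors. The starts used here are those of RefSeq. The GENCODE bounds of Hspa5 given below begin earlier, at 34771970, so its element lies inside them. These are matches of letters in a window and not measured binding.

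Each value given here is a gene's TPM, the length-corrected share of all transcripts in a library, summed over the gene's transcripts and scaled between libraries. TPM already accounts for transcript length, so levels can be compared between genes, but it keeps no read depth and allows no counting error. The TPM share of mitochondrial transcripts ranged from 31.3% to 48.7% over the 25 libraries, and the scaling factors from 0.864 to 1.16. Gpx4, the gene targeted in the GPx4+/- mice, was at 251 to 357 scaled TPM in GPx4+/- CNTL and 324 to 383 in GPx4+/- HFHS, against 591 to 778 in the 15 WT mice, so every library matched its genotype label. The 8 ventricular cardiomyocyte markers were detected in all groups, with a summed level of 44379.5 to 55494.9. Atrial cardiomyocyte markers were detected too, and their sum ran from 31.5 in a WT HFHS mouse to 7443 in a GPx4+/- CNTL mouse. Hepatocyte markers summed to between 16.9 and 1409.5, the highest again in GPx4+/- CNTL. A mouse is said to have raised markers where at least 3 of the 6 atrial or 3 of the 8 hepatocyte markers were above 4 times their median over the 25 mice. This held for 11 mice, of which 4 were in GPx4+/- CNTL and 3 in GPx4+/- HFHS, and results are given without them where that matters. The rule counts markers and does not follow the sums: GPx4+/- CNTL replicates 3 and 4 met it with 3 hepatocyte markers each, at sums of 32.9 and 34.6, while WT HFHS replicate 4, at 48.6, did not.

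Hspa5, the ER member of the Hsp70 family (BiP, chr2:34771970-34777547), had the highest level of the 10 genes, at 259 ± 23.4 scaled TPM (SD, n = 25 mice), a level that placed it 337th of the 11984 genes tested. Calr, the calcium-binding lectin calreticulin (chr8:84841850-84846934), came next at 141 ± 13.4. Hsp90b1, the ER member of the Hsp90 family (GRP94, chr10:86690209-86705509), stood at 117 ± 11.5 and Canx, the membrane-bound lectin calnexin (chr11:50293961-50325673), at 115 ± 6.68. Hspa5 was above Calr, and Calr above Hsp90b1, in 25 of 25 mice, whereas Hsp90b1 was above Canx in only 16 of 25, so these neighbors did not differ beyond their spread. These locations, and those that follow, are the GENCODE M21 gene bounds in GRCm38.

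The disulfide isomerases were less abundant. Pdia3 (ERp57, chr2:121413775-121438687), which works with calreticulin and calnexin, was at 53.4 ± 6.31 scaled TPM, and Pdia6 (chr12:17266545-17284770) at 35.9 ± 3.22. Pdia4 (ERp72, chr6:47796141-47813430) was at 12.2 ± 1.32. Each of these steps down was seen in 25 of 25 mice.

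The co-chaperones and the secreted factor filled the lower end of the order. Manf (chr9:106838312-106891979), an ER protein that can be secreted and protects stressed cells, was at 24.4 ± 3.41 scaled TPM, below Pdia6 in 25 of 25 mice. Dnajb9 (ERdj4, chr12:44205559-44210326), a J protein that acts with BiP, was at 12.4 ± 1.21 and above Pdia4 in 18 of 25 mice, so that pair could not be ordered. Sdf2l1 (chr16:17130138-17132383), another BiP-associated factor, was far below the rest at 2.91 ± 0.611, in 9684th place among all genes tested. The coefficient of variation of Sdf2l1 between mice of a group was 11.0% to 23.0%, that of Manf 7.89% to 20.4% and that of Canx 3.19% to 7.64%.

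For 5 of the genes nearly all of the TPM came from a single coding transcript (98.5% or more for Hsp90b1, Pdia4, Pdia6, Dnajb9 and Sdf2l1). For the other 5 a short transcript not annotated as coding took a sizeable share. It was 18.5% for Hspa5 (a transcript of 477 bases annotated for nonsense-mediated decay), 19.5% for Pdia3, 30.7% for Calr, 30.7% for Manf and 36.3% for Canx. Short transcripts share sequence with the coding one, so how the reads were split between them is uncertain, and the order of the upper genes turned on it. By the main coding transcript alone, Hsp90b1 at 116 scaled TPM stood above Calr at 96.9 and Canx at 71.3, with Hspa5 still highest at 206. Fits on coding transcripts alone called none of the 10 genes either.

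**Figure D1:**
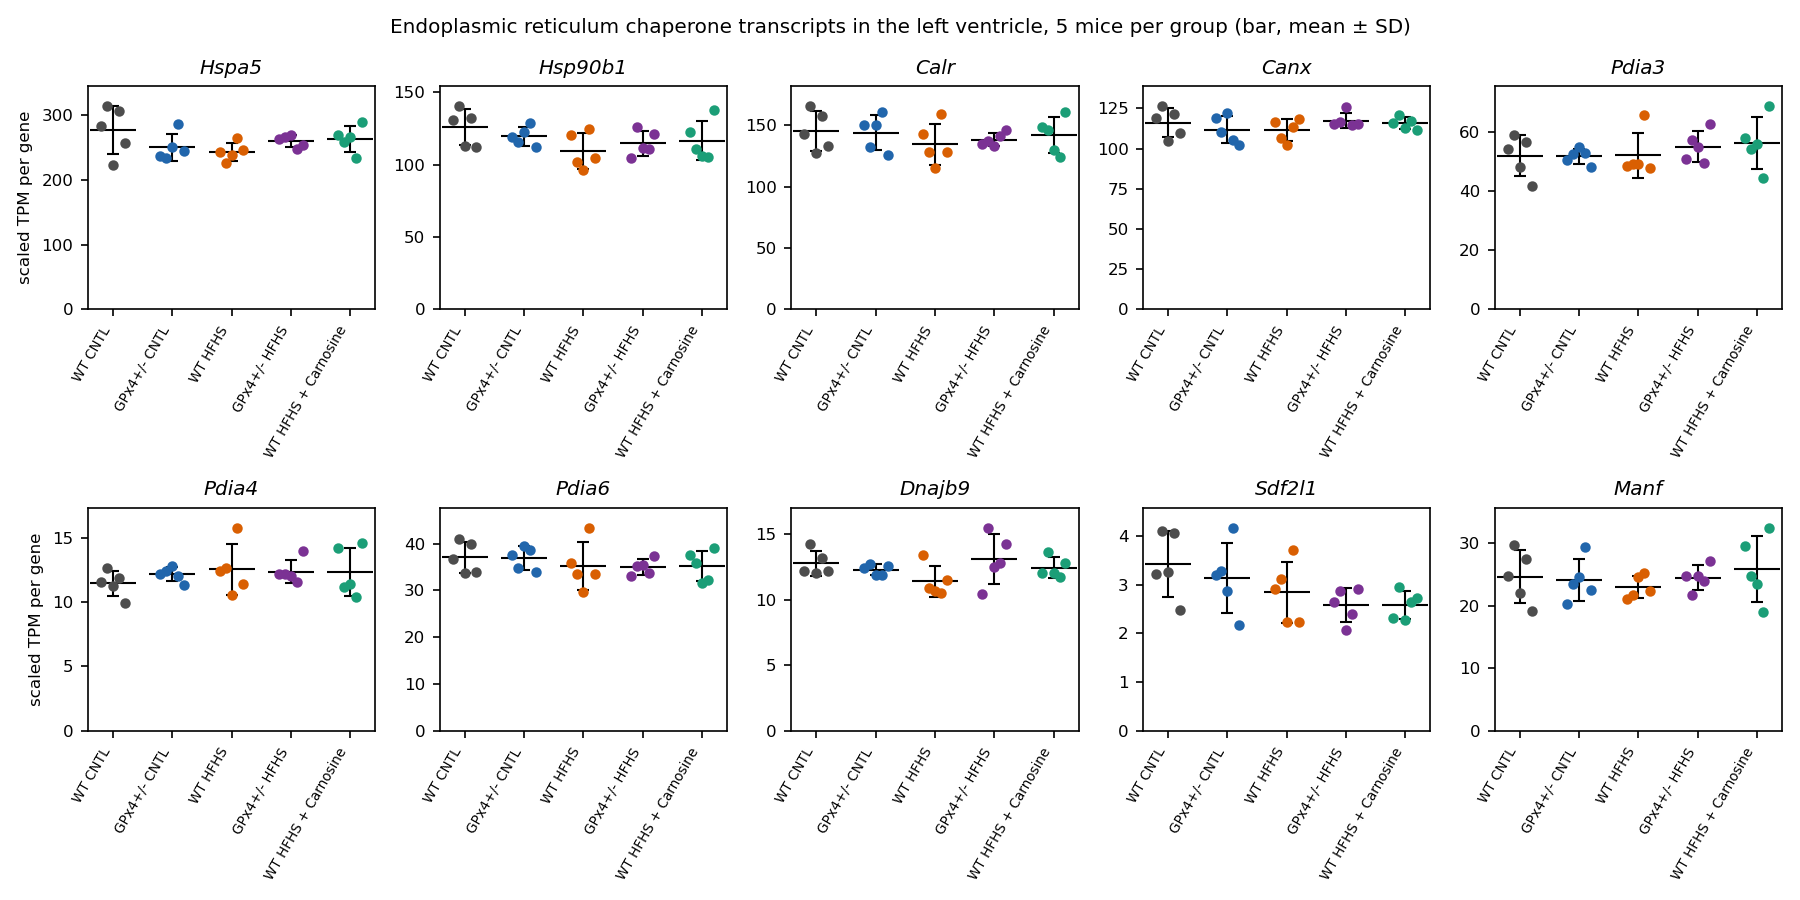
Scaled TPM (vertical axes, linear, from 0) of each of the 10 genes in the 5 groups; each point is 1 mouse, and the horizontal bar and whiskers are the mean and SD of 5 mice. The groups compared overlap in every panel, and the step between genes, from 259 for Hspa5 to 2.91 for Sdf2l1, is far larger than any step between groups.

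Feeding HFHS to WT mice, the first comparison of the design, was followed by no called change in any chaperone gene (limma on log2 of the scaled TPM plus 0.5, Benjamini-Hochberg over all 11984 genes, adjusted p under 0.05). The same fit called 142 genes, 1.18% of those tested. The log2 fold change was below 0 for 8 of the 10 chaperones, with a median of -0.10, beside a median of 0.00 over all genes tested. Hspa5 and Hsp90b1 had an unadjusted p under 0.05, as did 16.5% of all genes. Single mice and settings moved the median. It was -0.05 without WT CNTL replicate 2, -0.15 without WT CNTL replicate 5, without WT HFHS replicate 4 or with coding transcripts alone, and -0.17 with libraries weighted by their estimated quality. The count of chaperones with an unadjusted p under 0.05 moved too. It was 0 of 10 without WT CNTL replicate 2 and 3 of 10 without WT CNTL replicate 5, where 1602 and 1652 of the 11984 genes had one. It was 4 of 10 without WT HFHS replicate 4 (1624 genes) and 5 of 10 with library weights (2488 genes).

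In WT CNTL mice, Hspa5 was at 284, 313, 223, 305 and 257 scaled TPM. In WT HFHS mice it was at 243, 226, 238, 264 and 245. The HFHS values sat inside the range of the controls, whose lowest mouse was below all 5 of them, and the controls were the more spread out (SD of 37.1 against 13.9). The difference was -0.17 on the log2 scale (SE 0.077, 95% confidence interval -0.33 to -0.01), with an adjusted p of 0.264 from limma and an exact permutation p of 0.127 (two-sided, n = 5 and 5). Without the lowest control it was -0.25 (limma, adjusted p = 0.0586), so that 1 mouse moved the estimate but the call did not change.

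Hsp90b1 had values of 131, 140, 113, 132 and 112 scaled TPM in WT CNTL. In WT HFHS they were 120, 102, 96.1, 124 and 104. Of the HFHS mice, 3 lay below every control and the other two within the controls' range. The log2 difference was -0.20 (SE 0.077, 95% confidence interval -0.36 to -0.04), with an adjusted p of 0.195 from limma and an exact permutation p of 0.0873. Weighting each library by its estimated quality was the only alternative that called a chaperone gene, and it called Hsp90b1, with a log2 difference of -0.27 and an adjusted p of 0.0459.

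None of the remaining genes had an unadjusted p under 0.05 in limma between WT CNTL and WT HFHS. Dnajb9 was at 12.0 to 14.2 scaled TPM in WT CNTL and 10.5 to 13.4 in WT HFHS, and 4 of the 5 HFHS mice were below all controls (log2 difference -0.16, SE 0.084, limma adjusted p = 0.355). Its exact permutation p of 0.0714 was the lowest of the 10 genes in this comparison. Sdf2l1 had the lowest estimate, -0.23, with the widest interval, -0.55 to 0.08. Calr, Canx, Pdia6 and Manf lay between -0.11 and -0.06, while Pdia3 was at 0.00 and Pdia4 at 0.12. No chaperone gene had groups that did not overlap, against 4.51% of all genes tested.

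In GPx4+/- mice the same diet change also called none of the 10 genes, where 400 genes, 3.34% of those tested, were called. The chaperones' median log2 difference was 0.03, with 6 of 10 above 0. Both values changed with the processing. Without the 11 mice with raised markers, the median was 0.17 with 10 of 10 above 0, but this left 1 GPx4+/- CNTL mouse (replicate 5), which had 1 of 10 genes above its group mean to begin with. Leaving out single mice gave -0.01 (without GPx4+/- HFHS replicate 5) to 0.04. With TPM as deposited it was -0.08 with 0 of 10 above 0, where the median over all genes was -0.10. None had an unadjusted p under 0.05, which 18.3% of all genes had. None had groups that did not overlap, against 4.47% of all genes. Hspa5 was at 237, 233, 251, 285 and 244 scaled TPM in GPx4+/- CNTL. It was at 263, 266, 269, 248 and 253 in GPx4+/- HFHS, so that the control group held both the lowest and the highest mice. Its log2 difference was 0.06 (95% confidence interval -0.10 to 0.22).

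The diet difference itself could be compared between genotypes through the interaction term, which called 0 of the 10 chaperones and 0 genes in all (0% of those tested, with 7.14% at an unadjusted p under 0.05). Without WT CNTL replicate 3 it called 1 gene, not a chaperone. For Hspa5 the diet difference was higher in GPx4+/- than in WT mice by 0.23 log2 units (SE 0.108), with an unadjusted p of 0.0445 and an adjusted p of 0.691 from limma, so it failed the correction. For Dnajb9 it was higher by 0.23 (SE 0.119, adjusted p = 0.691). The other 8 estimates ran from -0.10 for Pdia4 to 0.14 for Hsp90b1. In all, 9 of 10 were above 0, against 7 of 10 without WT CNTL replicate 2, 10 of 10 without the mice with raised markers (again with 1 GPx4+/- CNTL mouse) and 5 of 10 with TPM as deposited, where the median over all genes was -0.11. Beside these values, the smooth muscle markers had a median of -0.67 with 0 of 6 above 0. The fibroblast markers had one of -0.20 with 0 of 8 above 0. None of the 6 atrial (median -0.74), 6 macrophage (-0.15), 4 plasma and B cell (-0.28) and 2 adipocyte (-1.06) markers was above 0 either. The medians of the endothelial, ventricular and hepatocyte markers were -0.04, 0.07 and 0.02. No marker was called, and their part was not tested.

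Over both genotypes, where 998 genes or 8.33% of those tested were called, 0 of the 10 chaperones were called. Their median log2 difference was -0.05 with 3 of 10 above 0, beside 0.00 over all genes. It was -0.03 without WT CNTL replicate 2, 0.01 with 5 of 10 above 0 without the mice with raised markers, and -0.10 with TPM as deposited, where the median over all genes was -0.05. Hsp90b1 (-0.13, SE 0.054, adjusted p = 0.139) and Sdf2l1 (-0.23, SE 0.107, adjusted p = 0.195) had an unadjusted p under 0.05 in limma, as did 24.5% of all genes. The 95% confidence intervals of the other 8 genes lay within -0.21 and 0.19, which bounds what a difference missed here could be. With library weights Hsp90b1 was called here too, at -0.17 (adjusted p = 0.0488). Without the mice with raised atrial or hepatocyte markers no chaperone was called in any comparison, although that left 1 GPx4+/- CNTL mouse, and there the log2 difference of Hsp90b1 over both genotypes was -0.06.

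**Figure D2:**
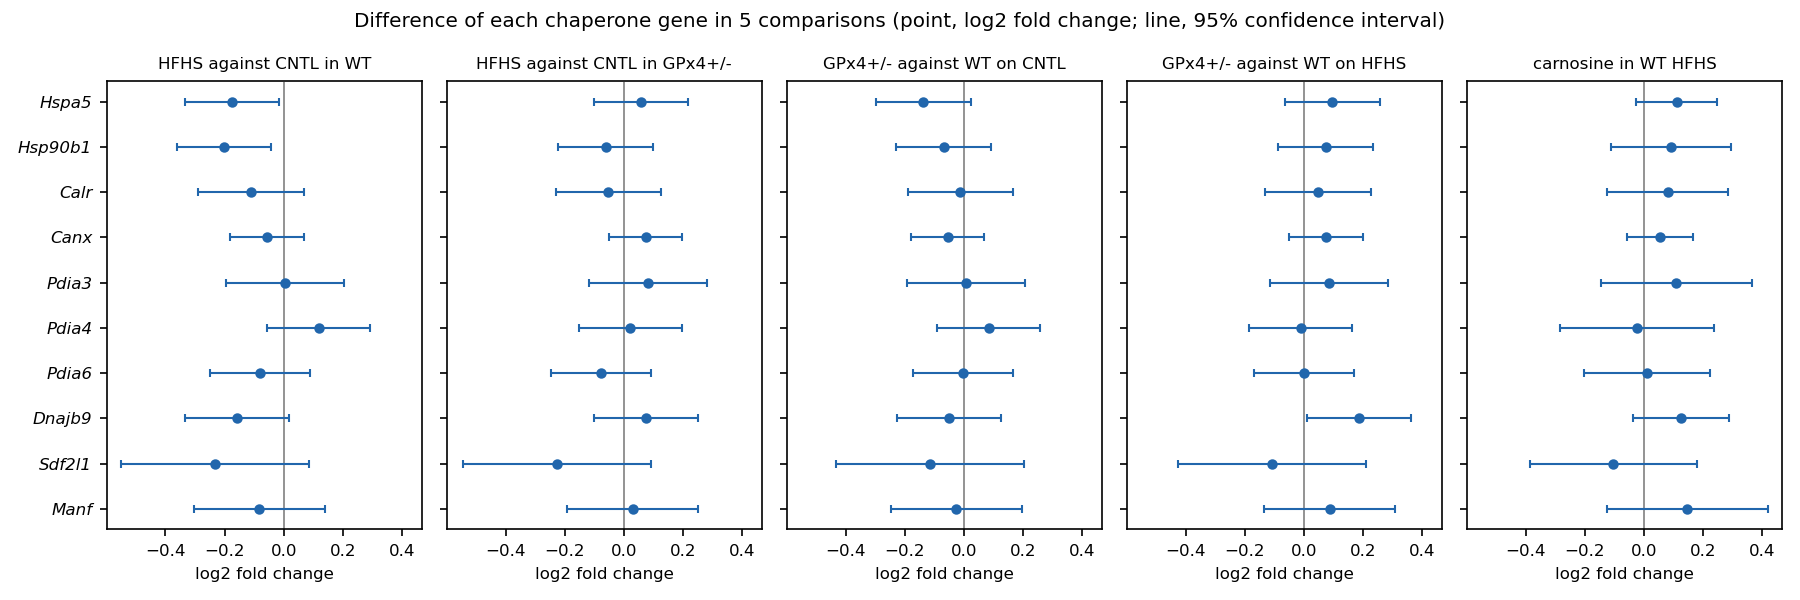
Log2 fold change (horizontal axes) of each chaperone gene in 5 comparisons, 5 mice against 5 in each; points are limma estimates and lines their 95% confidence intervals. No gene was called in any panel, and only Hspa5 and Hsp90b1 for diet in WT and Dnajb9 for genotype on HFHS have intervals that leave out 0.

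Losing 1 copy of Gpx4 called none of the 10 genes on either diet. On CNTL the fit called 6 genes in all, 0.0501% of those tested, and on HFHS also 6, again 0.0501%. Over both diets 7 genes were called, 0.0584%. The chaperones' median log2 difference was -0.04 on CNTL with 2 of 10 above 0, and 0.07 on HFHS with 8 of 10 above 0. The CNTL value turned sign without WT CNTL replicate 2 (0.01, 5 of 10 above 0), and leaving out single mice gave 0.04 to 0.12 on HFHS. Without the mice with raised markers it was 0.08 with 10 of 10 above 0 on HFHS, from 2 GPx4+/- mice against 3 WT mice, and on CNTL only 1 GPx4+/- mouse was left to compare. With TPM as deposited 5 of 10 were above 0 on each diet, and the median was 0.00 on both, beside 0.03 over all genes on CNTL and -0.07 on HFHS. Markers of other cells differed beside these values, with none called. The smooth muscle markers had a median log2 difference of -0.59 on HFHS with 0 of 6 above 0, and the atrial markers one of 0.98 on CNTL with 5 of 6 above 0. Of the 7 hepatocyte markers tested, 7 were above 0 on CNTL (median 1.36) and 6 on HFHS (1.37). Their part was not tested. On CNTL and over both diets none had an unadjusted p under 0.05, which 6.28% and 3.9% of all genes had. Non-overlapping groups were seen for 0 of 10 chaperones on both diets, against 0.926% of all genes on CNTL and 0.726% on HFHS.

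Dnajb9 was the 1 chaperone with an unadjusted p under 0.05 for genotype on HFHS, a level that 4.57% of all genes reached. It was at 13.4, 10.9, 10.7, 10.5 and 11.5 scaled TPM in WT HFHS. In GPx4+/- HFHS it was at 10.4, 15.5, 12.5, 12.8 and 14.3. The GPx4+/- group held the lowest mouse as well as the 2 highest, and the log2 difference was 0.19 (SE 0.084) with a limma adjusted p of 0.978 and an exact permutation p of 0.143. Hspa5 was higher in GPx4+/- HFHS than in WT HFHS in 22 of 25 pairings of mice, by 0.10 log2 units (95% confidence interval -0.06 to 0.26, exact permutation p = 0.0556).

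Carnosine given to WT HFHS mice called none of the 10 chaperones and no gene at all (0% of those tested), the smallest adjusted p over all genes being 0.947. At an unadjusted p under 0.05 there were 505 genes, 4.21%, and none of them was a chaperone. The chaperones' median log2 difference was 0.09 with 8 of 10 above 0, and 0.01 with 6 of 10 above 0 with TPM as deposited, where the median over all genes was -0.07. It was 0.03 without carnosine replicate 5 and 0.04 without WT HFHS replicate 3, but 0.12 with 9 of 10 above 0 without WT HFHS replicate 4. In that last fit 1 chaperone had an unadjusted p under 0.05 in limma, as did 436 of all genes. There was also 1 such chaperone without WT HFHS replicate 1 (678 genes) and with library weights (666 genes). Beside these values, the smooth muscle markers had a median log2 difference of -0.84 with 0 of 6 above 0, and the fibroblast markers one of -0.20 with 1 of 8 above 0, none of them called. Their part was not tested. Hspa5 was at 268, 259, 266, 234 and 289 scaled TPM with carnosine. Of these, 3 lay above every WT HFHS mouse and the difference was 0.11 (95% confidence interval -0.03 to 0.25, exact permutation p = 0.119). Hsp90b1 was at 123, 111, 106, 105 and 138, a difference of 0.09 (95% confidence interval -0.11 to 0.29). No chaperone had groups that did not overlap, against 0.609% of all genes. The WT HFHS mice served both this comparison and the WT diet comparison, so the estimates of opposite sign for Hspa5, -0.17 and 0.11, share those 5 mice.

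The rest of the ER machinery was read in the same fits from lists of known genes. Over both genotypes, HFHS called 0 of 25 other ER folding factors (median log2 difference 0.03), 0 of 19 tested ER-associated degradation genes (0.01) and 0 of 24 genes of the translocon and signal peptide processing (0.00). At an unadjusted p under 0.05, limma had 2 folding factors above 0, 1 degradation gene above and 3 below, and 1 translocon gene below, against 24.5% of all genes. Within each genotype none of these 3 lists had a called gene either. In the list of UPR sensors and transcription factors, 3 of 14 rose over both genotypes and none fell, with a median of 0.08, beside the 8.33% called among all genes. These were Atf6, Atf6b and Ddit3.

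Atf6 encodes the sensor that is cut in the Golgi under ER stress and then acts as a transcription factor on ERSE-bearing genes. Its mRNA was at 31.9, 26.3, 30.4, 27.9 and 29.8 scaled TPM in WT CNTL, and at 31.1, 33.2, 34.3, 35.9 and 40.1 in WT HFHS. It was at 26.9, 28.3, 24.5, 26.2 and 29.4 in GPx4+/- CNTL, and at 34.6, 37.5, 38.2, 35.0 and 38.2 in GPx4+/- HFHS. All 5 GPx4+/- HFHS mice were above all 5 of their controls, and 4 of 5 WT HFHS mice were above theirs.

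Atf6 rose by 0.43 log2 units in GPx4+/- mice (SE 0.066, limma adjusted p = 0.00222) and by 0.34 over both genotypes (SE 0.047, adjusted p = 0.000217). In WT mice alone the difference was 0.25 (SE 0.066, adjusted p = 0.0716) and was not called. The interaction test did not call the difference between the genotypes (0.18, SE 0.094, adjusted p = 0.691). With carnosine Atf6 was at 33.8 to 40.2 scaled TPM and the difference from WT HFHS was 0.07 (adjusted p = 0.954). Without the mice with raised atrial or hepatocyte markers the estimates were 0.36 in GPx4+/- and 0.35 over both genotypes, and neither was called. This left 1 GPx4+/- CNTL mouse, so these estimates say little about how firm the rise is.

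Atf6b, a close relative of Atf6, rose by 0.18 over both genotypes (SE 0.050, adjusted p = 0.0310) and Ddit3, the transcription factor CHOP that acts late in the UPR, by 0.22 (SE 0.066, adjusted p = 0.0420). Both calls were near the threshold and were lost in 12 and 19 of 32 alternatives. The annotation holds 2 gene entries named Ddit3, and its values are those of the entry at chr10:127290774-127296288 alone. Of the 9 tested cytosolic heat shock genes, Bag3, a co-chaperone of Hsp70 needed for turnover of damaged proteins in heart muscle, rose in GPx4+/- mice (0.30, SE 0.055, adjusted p = 0.00546) and over both genotypes (0.25, SE 0.039, adjusted p = 0.000605). Bag3 was at 107 to 113 scaled TPM in WT CNTL and 116 to 140 in WT HFHS, without overlap, which 4.51% of all genes showed there, but the difference was not called in WT alone (0.19, SE 0.055, adjusted p = 0.0939). In GPx4+/- mice it was at 95.4 to 112 on CNTL and 116 to 134 on HFHS, again without overlap, as for 4.47% of all genes. Without the mice with raised markers Bag3 was called neither in GPx4+/- mice (0.14) nor over both genotypes (0.13), again with 1 GPx4+/- CNTL mouse left.

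**Figure D3:**
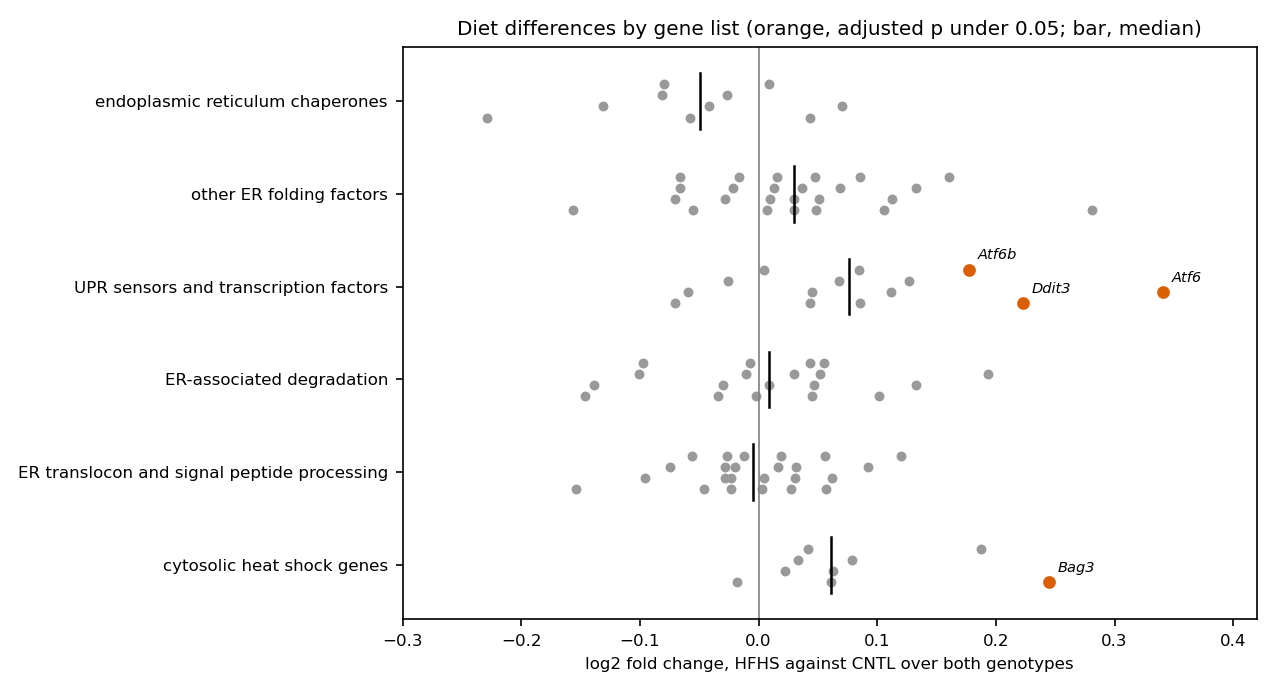
Log2 fold change of HFHS against CNTL over both genotypes (horizontal axis) for every tested gene of 6 lists, 10 mice against 10; points are genes, orange where the adjusted p was under 0.05, and black bars are list medians. The chaperone row has no orange point and a median of -0.05, while Atf6, Atf6b, Ddit3 and Bag3 are the called genes of the other rows.

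Cell type markers moved with diet as well. Of the 8 fibroblast markers, all 8 had a log2 difference above 0 on HFHS over both genotypes and 2 were called, Pdgfra (0.29, adjusted p = 0.0472) and Lum (0.55, adjusted p = 0.0395). The summed fibroblast markers ranged from 290 to 565 in WT CNTL, 315 to 462 in GPx4+/- CNTL, 380 to 730 in WT HFHS and 364 to 544 in GPx4+/- HFHS. Of the 8 ventricular markers 1 was called, Myh6, which fell by 0.17 (adjusted p = 0.0314). The list's median was -0.12, with 2 of 8 above 0 and 5 below 0 at an unadjusted p under 0.05. The 6 atrial markers all lay below 0 (median -0.90), with 1 at an unadjusted p under 0.05 and none called. Smooth muscle markers summed to 78.7 to 147 in WT CNTL and 112 to 554 in WT HFHS. In WT all 6 had a log2 difference above 0 for diet (median 0.88) and an unadjusted p under 0.05 in limma, but none was called. The 6 macrophage markers also all lay above 0 in WT (median 0.21), with 2 at an unadjusted p under 0.05 and none called. So did the 4 plasma and B cell markers tested (median 0.26), again with 2 at an unadjusted p under 0.05 and none called. In GPx4+/- mice 2 of those 4 were above 0 (median -0.03). Their part in the values of the chaperones, Atf6 and Bag3 was not tested. In pieces of whole ventricle, fewer cells of a type and less RNA per cell cannot be told apart.

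Although the chaperones did not separate the groups, they varied together from mouse to mouse. Each log2 value was taken relative to its group mean, so that differences between group means did not contribute, and all 45 pairs of genes were correlated over the 25 mice. Pearson's r was above 0 in 45 of 45 pairs, with a median of 0.59. In all, 28 pairs had an adjusted p under 0.05 (permutation within groups, 100000 draws, Benjamini-Hochberg over 45 pairs), and 27 of these did so by Spearman's rho as well. An r above 0.5 was found in 26 pairs, 57.8% of them, but in 4.07% of 119740 pairs of a chaperone with another gene and in 2.97% of all gene pairs, where the median r was 0.01 and 0.00.

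Calr and Pdia6 were the closest pair, with r = 0.94 and rho = 0.96 (permutation p = 1e-05 for both, the smallest that the draws can give, adjusted p = 9e-05 and 0.000112), and r was 0.93 without the 2 mice farthest from the median. Hsp90b1 with Pdia6 (r = 0.88, rho = 0.88), Hsp90b1 with Calr (r = 0.87, rho = 0.89) and Pdia3 with Pdia4 (r = 0.87, rho = 0.79) followed, all at the same smallest p. Leaving out the 2 farthest mice gave r = 0.87, 0.84 and 0.80 for these pairs. For Hspa5 the closest partner was Manf (r = 0.74, rho = 0.68, permutation adjusted p = 0.00211 and 0.00447).

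Canx and Dnajb9 stood apart from this block. Canx had a median r of 0.28 with the other 9 genes and 1 called pair, with Pdia6 (r = 0.52), and Dnajb9 a median of 0.24 and 1 called pair, with Hsp90b1 (r = 0.48). The weakest pair was Dnajb9 with Manf (r = 0.05). Presence of the ERSE did not separate the tight genes from the loose ones, since Canx holds it and Pdia3 and Pdia4 do not.

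**Figure D4:**
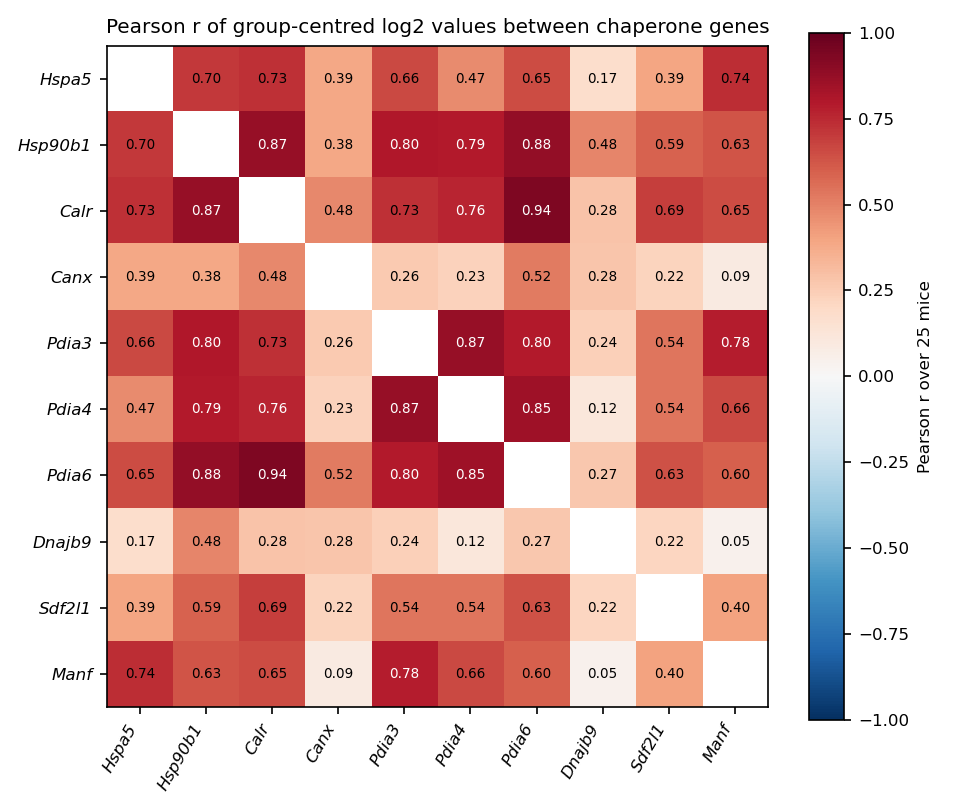
Pearson's r between each pair of the 10 genes over 25 mice, after each value was taken relative to its group mean; color and number give r, from -1 to 1. The values run from 0.05 to 0.94, and the Canx and Dnajb9 rows are paler than the rest.

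Single mice show the same pattern. In WT CNTL all 10 genes were above their group mean in 2 mice (replicates 2 and 4) and all 10 below it in 2 others (replicates 3 and 5). Replicate 3 was also 1 of the mice with raised atrial markers, which summed to 4638. In replicate 2 the genes averaged 0.18 log2 units above the mean and in replicate 5 they averaged 0.18 below it. WT HFHS replicate 4 had 9 of 10 genes above the mean, by 0.20 on average, with Pdia3 at 65.6 scaled TPM where the other 4 mice of its group were at 47.8 to 49.1. This mouse also had the highest summed fibroblast (730), smooth muscle (554) and macrophage (148) markers of the 25, whose part was not tested. Carnosine replicate 5 also had 9 of 10 above and replicate 4 had 8 of 10 below, Manf being at 32.5 and 19.0 scaled TPM in these mice. Over the 25 mice, 4 had at least 9 genes above their group mean and 5 had at most 1.

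**Figure D5:**
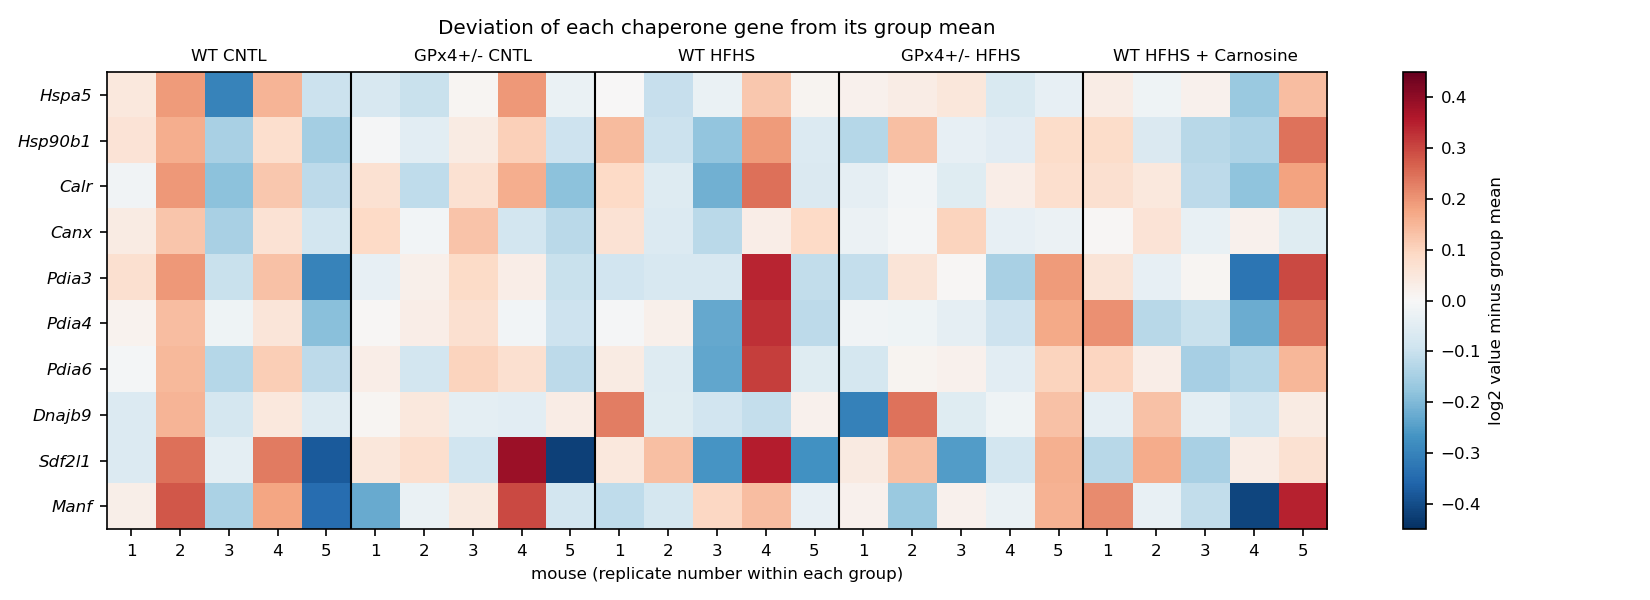
Log2 value minus group mean (color) of the 10 genes (rows) in each of the 25 mice (columns, grouped by black lines). Whole columns are red or blue, as for WT CNTL replicates 2 and 5, where the genes averaged 0.18 above and 0.18 below the group mean.

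The mean deviation of the 10 genes was set beside measures of each library. Over the 25 mice its Pearson's r was 0.02 with the mitochondrial share of TPM (rho = 0.03) and 0.03 with the scaling factor (rho = 0.03). It was 0.30 with the fibroblast markers (rho = 0.33), 0.25 with the smooth muscle markers (rho = 0.17), 0.25 with plasma and B cell markers (rho = 0.25), and between -0.10 and 0.14 with the other 6 marker lists. Without the 11 mice with raised atrial or hepatocyte markers, 26 of the 45 pairs were called and the median r was 0.74. Whether each mouse had received dextrose or saline could not be set beside these values.

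Outside the 10 genes, the 8 with the most similar pattern over the mice were Calm2, Plpp3, Dusp5, Stard4, Nes, Naa20, Hnrnpc and Cfl1, whose mean r with the chaperones ran from 0.64 for Calm2, a calmodulin gene, to 0.58 for Cfl1, which encodes the actin-severing protein cofilin. Of the other ER genes, Dnajb11, a co-chaperone of BiP, ranked 37th of 11974 with a mean r of 0.53, Xbp1, the transcription factor activated by Ern1, 44th with 0.53, and Hyou1, the exchange factor of BiP, 50th with 0.53. Ostc, a subunit of the oligosaccharide transferase, ranked 57th with 0.52. Atf6 was not among them. Its r with the 10 genes ran from -0.34 for Sdf2l1 to 0.02 for Pdia3, and none of the 40 relations of Atf6, Atf6b, Ddit3 and Bag3 with the chaperones passed the permutation test after adjustment (smallest adjusted p = 0.425, for Atf6b with Dnajb9, r = -0.50 and rho = -0.40).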

How the data were processed

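The authors deposited 1 table of TPM per transcript for 25 left ventricle poly(A) libraries, per the labels made from stranded libraries. The submitters' processing notes name kallisto 0.43.1, sleuth 0.30.0 and GRCm38 without a role. Columns were matched to mice by the library name in the header; the labels also state column positions that disagree with those names, and Gpx4 levels match every genotype label under the match by name. TPM sums to a fixed total and holds no depth, so precision rests on 5 mice per group. Of 119215 transcripts, 116772 matched a GENCODE M21 gene, and 2443 were left out. TPM was summed per gene and scaled by median ratios over 11879 genes. The 11984 genes averaging 1 scaled TPM or more were tested on log2(scaled TPM + 0.5) with limma 3.58.1 (R 4.3.3, mean-variance trend, two-sided), which understates changes of low genes. The 20 mice without carnosine were fitted together, and carnosine on the 10 WT HFHS mice. Single genes were also compared by exact permutation (SciPy 1.17.1), whose smallest p with 5 against 5 is 0.00794. The fits were also run on simulated data with noise drawn separately for each gene. That leaves out the variation shared between genes, so it could not test the fits under it. P-values over all genes were adjusted by Benjamini-Hochberg.

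The 10 genes and all lists were chosen with earlier results of these data known. Named genes were all 10, up to 4 called genes per ER list and comparison in order of p, the 8 genes most like the chaperones by mean group-centred r, and Gpx4. Dnajb11, Xbp1, Hyou1, Ostc, Pdgfra, Lum and Myh6 fall outside this rule and were named after their values were seen. The correlation alternatives were added once the data had been seen. Replicate numbers name separate mice and do not pair them.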

Additional observations from a re-analysis of the deposited data

Results flagged for a closer look

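In groups of 5, a mouse was singled out where its gap to the nearest other mouse was more than 0.71 of the group's range, which chance gives in about 1 of 20 groups. Among the 50 combinations of a chaperone gene and a group, 3 met this. Canx was at 126 scaled TPM in GPx4+/- HFHS replicate 3, where the other 4 mice were at 114 to 117. Pdia3 was at 65.6 in WT HFHS replicate 4, the mouse in which 9 of 10 chaperones were above their group mean. Pdia4 was at 13.9 in GPx4+/- HFHS replicate 5, in which 8 of 10 were above it. Among the other genes named, Ddit3 was at 22.6 in GPx4+/- HFHS replicate 3, and without that mouse its diet difference over both genotypes was 0.18 (limma adjusted p = 0.0547).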

How the results depend on the processing

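None of the 10 chaperones was called in any of the 8 comparisons under any alternative except library weights, which called 1 chaperone (Hsp90b1) for HFHS in WT and 1 over both genotypes. Sdf2l1 could not be tested with a minimum of 5. Of 2092 fold changes of chaperones under an alternative, 20 changed sign by more than their standard error, none of them called. Replicate numbers did not pair the mice: deviations of same-numbered mice had a median correlation of 0.00, with 9 of 50 above 0.1. With the number as a replicate block 0 chaperones were called, and 68 genes in place of 142 for HFHS in WT. Counts over all genes moved more. For HFHS in WT they were 38 with TPM as deposited, 43 with no filter, 74 with only the mice compared and 405 with library weights. For HFHS in GPx4+/- they were 235 with no filter, 222 without mitochondrial transcripts, 124 with only the mice compared and 3 without the 11 mice with raised atrial or hepatocyte markers, in place of 400. Without those mice 160 in place of 998 genes were called over both genotypes, and 0, 1 and 4 for genotype (CNTL, HFHS, both diets). Genotype calls were 3 on HFHS and 4 over both diets with coding transcripts only, and 4 over both diets with a minimum of 5. Leaving out 1 mouse gave 36 to 202 genes for HFHS in WT, 191 to 484 in GPx4+/- and 799 to 1104 over both genotypes. Called pairs of chaperones were 25 to 31 on leaving out 1 mouse and 37 with TPM as deposited, against 28.

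TPM gives no depth, so no level has a counting error, and 5 mice per group set the width of every interval. The part of dextrose or saline and of cell content in the differences was not tested.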
